A study of Mus musculus with 9 samples.

Results

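Foxp3, the gene of the lineage factor of regulatory T cells, and the Ikaros family genes Ikzf1, Ikzf2, Ikzf3 and Ikzf4 were taken by symbol from an RNA sequencing table of mouse T helper cells, and all 5 were found among its 22017 gene symbols. The table gives FPKM, a fragment count scaled to the length of a transcript and to the size of its library, for 9 libraries, 3 in each of 3 groups. All groups began as naive T cells from the spleens of wild-type C57BL/6 mice. They were activated with plate-bound anti-CD3 (5 ug/mL) and soluble anti-CD28 (1 ug/mL) for 3 days under polarizing conditions, kept in cytokines without antibody stimulation, given IL-2 (100 U/mL) from day 5, restimulated on day 7 in IL-2 with each of the antibodies at 0.05 ug/mL, and harvested on day 10. The antibody doses follow the labels' protocols, and the series text has mg/mL for the first activation. Th17-derived Th1 cells passed from the Th17 condition to the Th1 condition at the second activation. Th1 cells were kept throughout with IL-12 (10 ng/mL) and anti-IL-4. Th17 cells were kept throughout with TGF-beta (1 ng/mL), IL-6 (20 ng/mL), IL-1beta (10 ng/mL) and antibodies against IFN-gamma, IL-12 and IL-4. In comparisons with Th17 cells, the cytokines present on day 10 therefore differ together with the fate of the cells, and both cannot be told apart. Th17-derived Th1 and Th1 cells shared the Th1 condition from the second activation on and differed in the condition before it. Nothing in the labels says that the 3 libraries of a group are separate cultures or animals. The p-values therefore measure only the spread between these libraries, which may be technical.

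FOXP3 is a forkhead protein that keeps the regulatory T cell program in place and represses effector cytokine genes. Its gene is switched on in activated T cells by TGF-beta together with IL-2 and STAT5, and IL-6 works against this, so that regulatory T and Th17 fates branch from a shared TGF-beta signal. Ikaros factors bind DNA with zinc fingers near one end of the protein, pair with each other through zinc fingers at the other end, and recruit corepressors such as the NuRD complex. Ikzf1 encodes Ikaros, Ikzf2 Helios, Ikzf3 Aiolos and Ikzf4 Eos, a corepressor of FOXP3 in regulatory T cells. The remaining family gene, Ikzf5 (Pegasus), is given for comparison.

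By the GRCm38 annotation, Foxp3 lies on chromosome X (7573644 to 7595245, plus strand), Ikzf1 and Ikzf3 on chromosome 11 (11685003 to 11772926, plus strand, and 98464902 to 98546031, minus strand), Ikzf2 on chromosome 1 (69531214 to 69687245, minus strand) and Ikzf4 on chromosome 10 (128630843 to 128645991, minus strand). Promoter windows, which span 250 bases before to 50 bases after a transcript start (RefSeq, GRCm38.p6), were matched for 2 of the 5 members. Only Foxp3 and Ikzf1 are shown, because no window was matched for the other members. Foxp3 had the widest span of levels among the members and Ikzf1 the narrowest. Capitals mark GGGAA or its reverse complement TTCCC, the core that Ikaros zinc fingers recognize, searched on both strands.
Foxp3, chrX:7579426-7579725, plus strand: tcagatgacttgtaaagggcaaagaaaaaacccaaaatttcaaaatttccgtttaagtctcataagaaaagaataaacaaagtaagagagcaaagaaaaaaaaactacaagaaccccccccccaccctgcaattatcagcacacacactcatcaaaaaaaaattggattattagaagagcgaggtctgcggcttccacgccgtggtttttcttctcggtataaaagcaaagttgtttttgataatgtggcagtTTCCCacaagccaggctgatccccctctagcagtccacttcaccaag
Ikzf1, chr11:11685675-11685974, plus strand: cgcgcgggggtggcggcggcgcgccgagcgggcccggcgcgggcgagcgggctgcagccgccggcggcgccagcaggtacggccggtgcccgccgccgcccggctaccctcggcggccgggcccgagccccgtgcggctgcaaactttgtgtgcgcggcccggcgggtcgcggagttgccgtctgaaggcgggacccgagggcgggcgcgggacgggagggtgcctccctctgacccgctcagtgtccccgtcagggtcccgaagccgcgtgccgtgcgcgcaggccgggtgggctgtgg

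The Foxp3 window held 40.7% G and C, more than 11.4% of 32851 mouse promoter windows of this length, and 6 CpG dinucleotides. It held 1 GGGAA match, which begins 3 bases after the start and overlaps a match to GGAAA, the core recognized by NFAT factors, and a TATAAA at position -32. A later Foxp3 start (window chrX:7580233-7580532) held 47.7% G and C and 0 GGGAA matches. The Ikzf1 window held 81.3% G and C, more than 99.3% of windows, and 52 CpG dinucleotides, against a median of 7, and 0 matches to any of the motifs searched. A later Ikzf1 start (window chr11:11689927-11690226) held 49% G and C, 2 CpG dinucleotides and 2 GGGAA matches, both before the start. That start lies 3732 bases from the nearest Ikzf1 transcript start in the GRCm38 annotation used for the gene positions. GGGAA occurs in 62.7% of all windows, GGAAA in 61.3% and TATAAA in 13.6%, and the other motifs searched, TGTGGT (RUNX factors) and GTAAACA (forkhead factors), in 16.8% and 3.65%. These matches describe the letters only.

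Over the whole table, the sum of a library was 382581 to 405985 FPKM, with 13374 to 14063 genes detected above 0. Read depth is unknown, so no counting error is given. Of the 5 members, all passed the filter for testing (at least 1 FPKM in at least 3 libraries), Foxp3 with 7 of the 9 libraries at or above 1 FPKM. The T cell markers Cd3d, Cd3e, Cd3g, Cd2, Cd5, Cd4, Lck and Thy1 summed to 1433 to 1599 FPKM in Th17-derived Th1, 1408 to 1496 in Th1 and 1679 to 1738 in Th17 libraries. Sums of 8 B cell, 6 NK cell and 8 macrophage and dendritic cell markers were at most 5.62, 28.8 and 6.06 FPKM in any library. Replicate 3 of each group held the most Cd8a, one of the genes of the CD8 co-receptor carried by cytotoxic T cells. It was at 17.4, 27.4 and 104 FPKM in Th17-derived Th1 replicates 1 to 3, at 15.3, 19.0 and 117 FPKM in Th1, and at 37.4, 54.9 and 140.6 FPKM in Th17. Cd4 was below Cd8a in replicate 3 of each group, at 96.9, 57.1 and 52.9 FPKM in Th17-derived Th1, Th1 and Th17. In all other libraries Cd4 was above Cd8a. In addition, Th1 replicate 2 correlated with the other Th1 libraries at 0.964 and 0.967 across genes, against 0.990 between those, and Th17-derived Th1 replicate 3 with its group at 0.975 and 0.978, against 0.993. Where leaving out Th1 replicate 2, Th17-derived Th1 replicate 3 or all libraries of replicate 3 ended a call given below, this is stated with the call.

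Foxp3 message was highest in Th17 cells, lowest in Th1 cells and in between in Th17-derived Th1 cells, with no overlap between any of the groups. Its level was 2.16, 4.43 and 1.70 FPKM in the Th17-derived Th1 libraries, 0.378, 1.46 and 0.346 FPKM in the Th1 libraries and 9.36, 13.2 and 9.61 FPKM in the Th17 libraries. Replicate 2 was the highest library of each group. The nearest Th17-derived Th1 and Th1 libraries were at 1.70 and 1.46 FPKM. How many of all tested genes likewise lack overlap was not counted, here and for the genes below. The means were 2.76 ± 1.46 FPKM in Th17-derived Th1, 0.729 ± 0.635 in Th1 and 10.7 ± 2.14 in Th17 cells (SD, n = 3 per group, as for all means below).

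**Figure D1:**
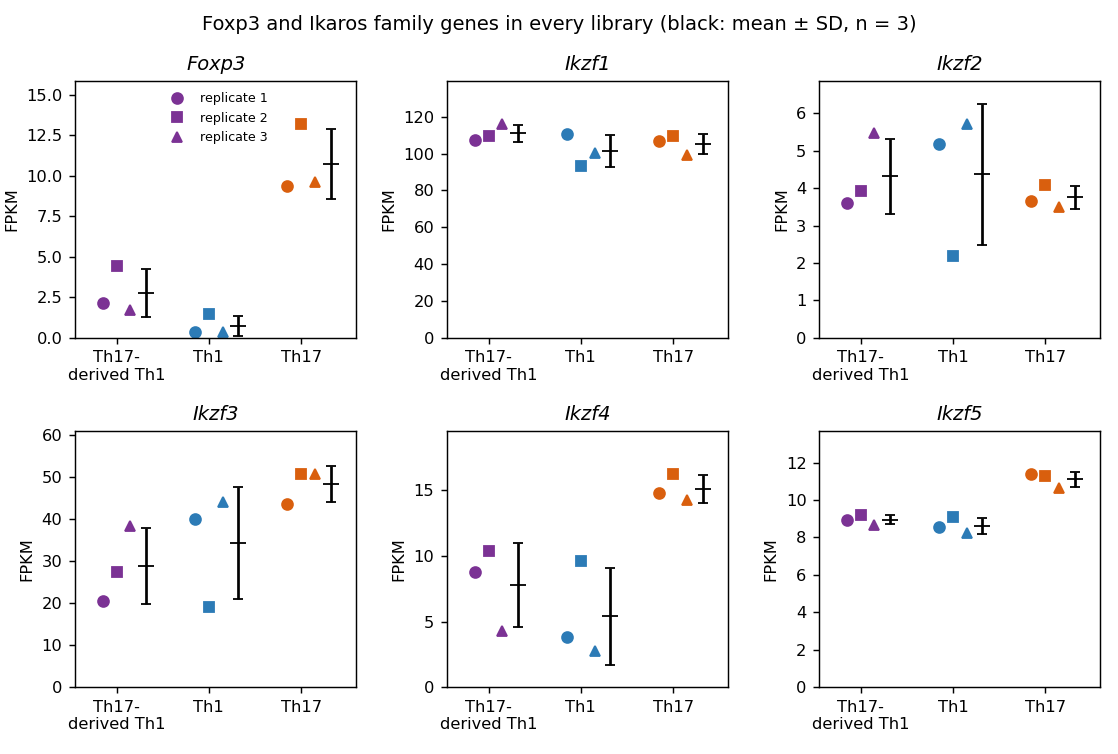
Levels in FPKM (vertical axes, from 0) of the 5 members and Ikzf5 in each of the 9 libraries, with one symbol per replicate number and the mean ± SD of each group in black. Foxp3 separates the 3 groups, Ikzf4 sets Th17 libraries (14.3 to 16.3 FPKM) above all others, Ikzf1 stays between 93.3 and 116 FPKM, and Ikzf2 and Ikzf3 are most scattered within Th1.

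Differences were tested with limma on log2(FPKM + 1) over all 10538 genes that passed the filter, with Benjamini-Hochberg adjustment and a threshold of 0.05. Against Th17, Foxp3 fell by 1.69 on this scale in Th17-derived Th1 cells (SE 0.306, 95% interval -2.38 to -1.0, adjusted p = 0.00686). In Th1 against Th17 cells it fell by 2.81 (95% interval -3.50 to -2.11, adjusted p = 0.000272). Th17-derived Th1 against Th1 cells gave a log2 difference of 1.11 (95% interval 0.42 to 1.80), which narrowly missed the threshold (adjusted p = 0.0504). The added 1 FPKM understates differences of low genes, here and in all fold changes given below, which are on this scale. The ratio of mean FPKM was 3.79 for Th17-derived Th1 over Th1, 0.258 for Th17-derived Th1 over Th17 and 0.0680 for Th1 over Th17. In bulk RNA, fewer cells with Foxp3 message and less message per cell cannot be told apart.

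The Foxp3 difference between Th17-derived Th1 and Th1 passed the threshold in 8 of 23 alternative fits. It missed the threshold in 15, among them quantile normalization and a fit of the 2 groups alone. It was 1.32 (adjusted p = 0.0352) when Th17-derived Th1 replicate 3 was left out and 1.40 without Th1 replicate 2 (adjusted p = 0.0132). With a block for the replicate number it was 1.11 (adjusted p = 0.00409), though the numbers were not taken to pair the samples. Without all 3 libraries of replicate 3, the difference was 1.17 against Th1 (adjusted p = 0.131) and -1.55 against Th17 (adjusted p = 0.0506), so that the call against Th17 was lost with 6 libraries left, while Th1 against Th17 kept it (-2.72, adjusted p = 0.00472). With Cd8a and Cd8b1 as a covariate the difference of Th17-derived Th1 cells was 1.15 from Th1 (adjusted p = 0.0425) and -1.78 from Th17 (adjusted p = 0.00719), and that of Th1 from Th17 cells was -2.93 (adjusted p = 0.000425). Foxp3 also overlaps Ccdc22 and Ppp1r3f on the opposite strand, and whether the counting used strand is not given in the sources used here, so that reads in the shared stretches cannot be told apart. Ccdc22 averaged 8.36, 8.55 and 11.7 FPKM in Th17-derived Th1, Th1 and Th17 cells, and Ppp1r3f 3.04, 2.38 and 2.92 FPKM.

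Ikzf4, which encodes Eos, the FOXP3 corepressor, was the family gene that differed most between groups, with the highest level in Th17 cells. Its level was 8.78, 10.4 and 4.26 FPKM in Th17-derived Th1, 3.86, 9.60 and 2.77 FPKM in Th1 and 14.8, 16.3 and 14.3 FPKM in Th17 libraries. The Th17 libraries lay close together and above all others, while Th17-derived Th1 and Th1 libraries overlapped. In Th1 against Th17 cells Ikzf4 fell by 1.47 on the log2 scale (95% interval -2.34 to -0.61, adjusted p = 0.0140). Leaving out Th1 replicate 3 ended that call (-1.16, adjusted p = 0.0513).

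The Ikzf4 difference of Th17-derived Th1 from Th17 cells was -0.94 (95% interval -1.81 to -0.08, adjusted p = 0.124) and did not pass, although no library overlapped. It passed without Th1 replicate 2, which enters through the shared spread (adjusted p = 0.0317), and with the Cd8a and Cd8b1 covariate (-1.14, adjusted p = 0.0468). Against Th1 cells the difference was 0.53 (95% interval -0.33 to 1.40, adjusted p = 0.420), and 0.97 without Th1 replicate 2 (adjusted p = 0.0493).

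Ikzf3, which encodes Aiolos, known in mouse Th17 cells as a repressor of the Il2 gene, was also highest in Th17 cells, but no difference passed the test. It stood at 20.6, 27.4 and 38.4 FPKM in Th17-derived Th1, 40.0, 19.2 and 44.0 FPKM in Th1 and 43.5, 50.7 and 50.8 FPKM in Th17 libraries. All Th17-derived Th1 libraries were below all Th17 libraries, whereas Th1 replicate 3 reached into the Th17 range. The log2 difference was -0.77 in Th17-derived Th1 against Th17 (95% interval -1.46 to -0.08, adjusted p = 0.117), -0.56 in Th1 against Th17 (-1.25 to 0.13, adjusted p = 0.164) and -0.21 in Th17-derived Th1 against Th1 (-0.90 to 0.48, adjusted p = 0.707). Without Th1 replicate 2 the first of these passed (-0.77, adjusted p = 0.0227).

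Ikzf1, which encodes Ikaros, the founding member of the family, was the most abundant member and the least variable. Its level was 107, 109.5 and 116 FPKM in Th17-derived Th1, 110.7, 93.3 and 100.3 FPKM in Th1 and 107, 109.6 and 99.3 FPKM in Th17 libraries. The groups overlapped in each comparison, and the highest library was 1.24 times the lowest. The 95% intervals of the log2 differences were -0.07 to 0.33 for Th17-derived Th1 against Th1, -0.12 to 0.27 against Th17 and -0.25 to 0.14 for Th1 against Th17.

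Ikzf2, which encodes Helios, a marker of many thymus-derived regulatory T cells, was the lowest of the 4 Ikaros members by group mean. It was at 3.59, 3.91 and 5.47 FPKM in Th17-derived Th1, 5.18, 2.20 and 5.72 FPKM in Th1 and 3.66, 4.09 and 3.50 FPKM in Th17 libraries. The groups overlapped throughout, and the log2 differences of 0.05, 0.15 and 0.10 for Th17-derived Th1 over Th1, Th17-derived Th1 over Th17 and Th1 over Th17 had adjusted p-values of 0.929, 0.714 and 0.768. Their 95% intervals reached from -0.55 to 0.74 over the 3 comparisons. Without Th1 replicate 2, Th1 cells had more Ikzf2 than Th17 cells (0.44, adjusted p = 0.0426).

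**Figure D2:**
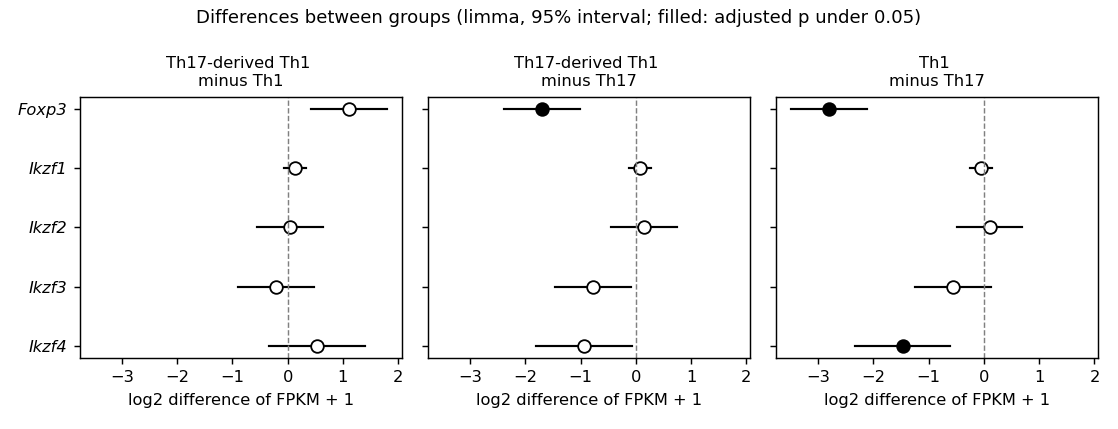
Log2 differences of FPKM + 1 (horizontal axes) of the 5 members in the 3 comparisons, with 95% intervals from limma and filled circles for adjusted p under 0.05. The filled circles are Foxp3 against Th17 in Th17-derived Th1 (-1.69) and in Th1 cells (-2.81) and Ikzf4 in Th1 against Th17 cells (-1.47).

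In Th17-derived Th1 against Th1 cells, limma called 0 of the 5 members, and 1 of 5 had an unadjusted p under 0.05, where 10.5% of all genes tested were called (597 higher, 507 lower). Against Th17 cells it called 1 of 5, where 15.9% of all genes were called, and in Th1 against Th17 cells 2 of 5, where 42.9% were called, so that the counts lie close to the background. The comparisons with Th17 share its 3 libraries. The split of all calls depended on scaling: 40.4% of calls were higher in Th17-derived Th1 than in Th17 cells and 32.7% higher in Th1 than in Th17 cells, but 63.0% and 53.8% after median-ratio scaling, under which the median log2 difference of all genes was -0.02 in both comparisons, against -0.12 and -0.17 as deposited. Quantile normalization gave 54.5% and 45.6%. Under equal sums, median-ratio scaling and quantile normalization alike, Foxp3 kept its calls against Th17 and Ikzf4 its call in Th1 against Th17 cells.

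Ikzf5, the family gene outside the set, was at 8.94 ± 0.246 FPKM in Th17-derived Th1, 8.62 ± 0.434 in Th1 and 11.1 ± 0.419 in Th17 cells. It was lower in Th17-derived Th1 than in Th17 cells (log2 difference -0.28, adjusted p = 0.0483), and so it was in Th1 against Th17 cells (-0.33, adjusted p = 0.0119), but both calls were lost under median-ratio scaling (-0.17 in each) and quantile normalization (-0.17 and -0.15). They were also lost without the libraries of replicate 3 (adjusted p = 0.137 against Th17 in Th17-derived Th1 and 0.0631 in Th1 cells), and the first without Th17-derived Th1 replicate 3 alone (0.118). It overlaps Pstk on the opposite strand, which averaged 8.54 FPKM in Th17-derived Th1, 7.22 in Th1 and 11.3 in Th17 cells. The FOXP3 relatives Foxp1 and Foxp4, at 33.9 ± 7.77 and 13.8 ± 0.114 FPKM in Th17-derived Th1 cells, passed in 0 of the 3 comparisons by limma, also unadjusted, with adjusted p-values of at least 0.125, and Foxp2 was too low to test.

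FPKM is scaled by length, so family members can be set beside each other. The summed FPKM of Ikzf1 to Ikzf5 was 160.8 ± 12.0 in Th17-derived Th1, 154.2 ± 18.4 in Th1 and 183.5 ± 7.27 in Th17 cells. Ikzf1 made up 69.1 ± 2.47% of this sum in Th17-derived Th1, 66.0 ± 3.83% in Th1 and 57.4 ± 1.86% in Th17 cells, and every Th17 library (55.6 to 59.3%) was below every other (62.3 to 71.9%). The share of Ikzf3 was 17.7 ± 4.24% in Th17-derived Th1, 21.8 ± 6.68% in Th1 and 26.3 ± 2.17% in Th17 cells. Ikzf4 held 4.95 ± 2.17% in Th17-derived Th1, 3.74 ± 3.01% in Th1 and 8.22 ± 0.250% in Th17 cells, and Ikzf2 between 2.04 and 2.76% by group mean. The shares are a description without a test.

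**Figure D3:**
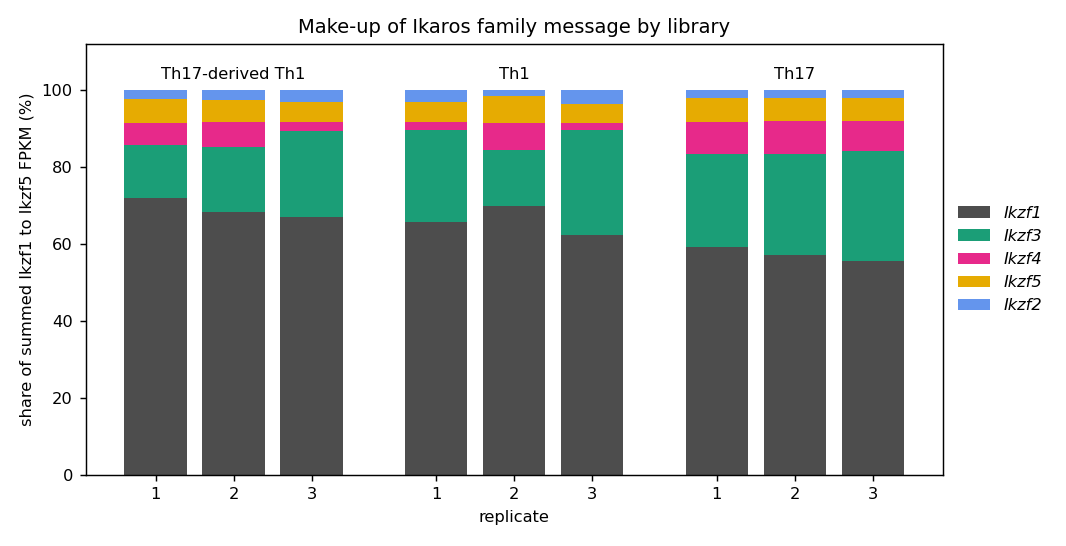
Share in percent (vertical axis) of each Ikaros family gene in the summed FPKM of Ikzf1 to Ikzf5, one bar per library. Ikzf1 takes 62.3 to 71.9% in the Th17-derived Th1 and Th1 libraries and 55.6 to 59.3% in the Th17 libraries, and the Ikzf4 segment is nearly the same height in the 3 Th17 libraries.

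The order of levels among genes was Ikzf1, then Ikzf3, in every library. Below these, Ikzf4 and Ikzf5 were followed by Foxp3 and then Ikzf2 in Th17 cells, where Ikzf5 and Foxp3 did not differ beyond their spread. In Th17-derived Th1 and Th1 cells Foxp3 was below Ikzf2 by group mean. There, the levels of Ikzf4 and Ikzf2 changed places between libraries. The ratio of Ikzf4 to Ikzf2 FPKM was 2.44, 2.66 and 0.780 in Th17-derived Th1, 0.746, 4.37 and 0.485 in Th1 and 4.04, 3.98 and 4.07 in Th17 libraries.

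Foxp3 and Ikzf4 deviated one way and Ikzf2 and Ikzf3 the other in both libraries that stood apart. In Th1 replicate 2, Foxp3 and Ikzf4 stood 0.57 and 0.87 log2 units above the group mean, and Ikzf2 and Ikzf3 stood 0.67 and 0.73 units below it (-0.67 and -0.73). Th17-derived Th1 replicate 3 had the opposite pattern, with Foxp3 and Ikzf4 at -0.41 and -0.67 and Ikzf2 and Ikzf3 at 0.30 and 0.45. Th1 replicates 1 and 3 had the direction of Th17-derived Th1 replicate 3, and Th17-derived Th1 replicate 2 had that of Th1 replicate 2. Each deviation is from the mean of its own group, so 1 library far from it places others on the opposite side. The split is therefore not particular to the libraries that stood apart. The remaining libraries did not share it. In Th17-derived Th1 replicate 1, Foxp3 was at -0.18 and Ikzf4 at 0.22, and all 4 genes were below the group mean in Th17 replicate 1 and above it in Th17 replicate 2. Th17 libraries differed little in Ikzf2, Ikzf3 and Ikzf4 (deviations of at most 0.15 in size), and there Foxp3 ranged over 0.45. Over all tested genes, the deviations of Th1 replicate 2 correlated at -0.646 with those of Th17-derived Th1 replicate 3. They correlated at 0.537 with those of Th17-derived Th1 replicate 2. Between replicate 3 of Th17-derived Th1 and replicate 3 of Th1 the correlation was 0.659. The likeness and contrast of these libraries therefore extended beyond the 4 genes.

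**Figure D4:**
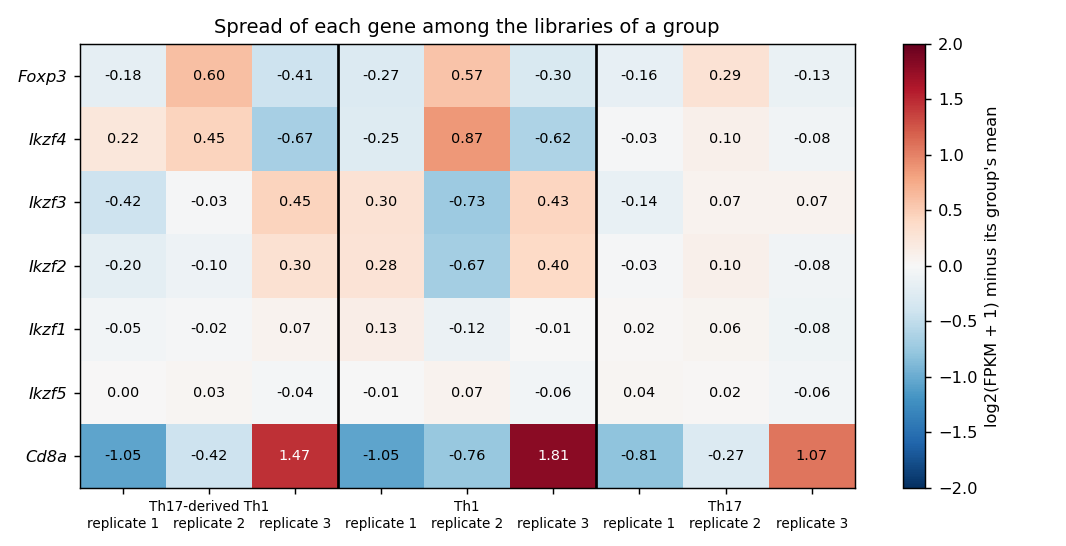
Deviation of log2(FPKM + 1) from the mean of its own group (colour and printed value) for each gene in each library, with Cd8a in the bottom row. Foxp3 and Ikzf4 are above and Ikzf2 and Ikzf3 below the mean in Th1 replicate 2, with the reverse in Th17-derived Th1 replicate 3, and Cd8a is highest in replicate 3 of every group. The other Th1 libraries share the reverse pattern, and Th17-derived Th1 replicate 2 shares that of Th1 replicate 2. Over all tested genes, the deviations of Th1 replicate 2 and Th17-derived Th1 replicate 3 correlated at -0.646.

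The SD of Ikzf4 on this scale was 0.591 in Th17-derived Th1, 0.777 in Th1 and 0.093 in Th17 cells, beside a median SD over all tested genes of 0.143, 0.180 and 0.127. For Ikzf1 it was 0.060, 0.123 and 0.073. Cd8a deviated by 1.47, 1.81 and 1.07 in replicate 3 of Th17-derived Th1, Th1 and Th17, where Ikzf4 deviated by -0.67, -0.62 and -0.08. The part of CD8-expressing cells in these deviations was not tested beyond the fits above.

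Among 7932 tested genes with a mean of at least 5 FPKM, those whose log2(FPKM + 1) followed each member most closely over the 9 libraries were listed by Pearson correlation, as a description, since libraries of 1 group share their condition. For Foxp3 these were Usp22 (0.991), which encodes a deubiquitinase of the SAGA coactivator complex, Unk (0.989) and Aqr (0.987). For Ikzf4 they were Isoc1 (0.993), Cebpz (0.992) and Rint1 (0.991), and for Ikzf3 Herpud2 (0.968), Aak1 and Zfp36l2 (0.956 each). The highest values were 0.959 for Ikzf1 (Kbtbd11, with Pecam1 at 0.958 and Stat5b at 0.955) and 0.967 for Ikzf2 (Tmem18, with Nudt16 at 0.960 and Wdr45 at 0.956). Usp22 averaged 10.9 ± 1.48 FPKM in Th17-derived Th1, 7.38 ± 0.969 in Th1 and 17.7 ± 1.30 in Th17 cells, the same order of groups as Foxp3.

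Genes that work upstream of Foxp3 changed in both directions. Of 26 listed regulators, 1 was higher and 3 were lower in Th17-derived Th1 than in Th1 cells, 4 were higher and 3 lower than in Th17 cells, and the Th1 against Th17 comparison had 11 higher and 8 lower (15.4%, 26.9% and 73.1% called, median log2 differences 0.09, 0.09 and -0.05, against 0.05, -0.12 and -0.17 for all genes). Over all genes tested, 10.5%, 15.9% and 42.9% were called. In the IL-2 arm, Il2ra, the high-affinity receptor chain that feeds STAT5, averaged 424 ± 29.4 FPKM in Th17-derived Th1, 471 ± 82.8 in Th1 and 94.9 ± 22.7 in Th17 cells. It was 4.50-fold higher in Th17-derived Th1 than in Th17 cells (adjusted p = 0.000154) and 4.95-fold higher in Th1 than in Th17 cells (adjusted p = 4.25e-05), opposite to Foxp3.

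In the TGF-beta arm, the receptor gene Tgfbr1 averaged 7.58 ± 0.776 FPKM in Th17-derived Th1, 8.92 ± 0.782 in Th1 and 12.2 ± 0.385 in Th17 cells. It was lower in Th17-derived Th1 than in Th17 cells (-0.62, adjusted p = 0.00446). Smad3, a signal carrier of the pathway, moved the other way. It averaged 21.0 ± 0.475 FPKM in Th17-derived Th1, 18.8 ± 3.91 in Th1 and 11.7 ± 0.562 in Th17 cells, with a log2 difference of 0.79 in Th17-derived Th1 against Th17 (adjusted p = 0.00531), a call lost without the libraries of replicate 3 (adjusted p = 0.0536). Tet3, a DNA demethylation enzyme of a family that keeps Foxp3 enhancers unmethylated, was at 13.0 ± 0.425 FPKM in Th17-derived Th1, 10.9 ± 0.994 in Th1 and 24.5 ± 2.45 in Th17 cells. It was lower in Th17-derived Th1 than in Th17 cells (-0.86, adjusted p = 0.00102) and in Th1 than in Th17 cells (-1.11, adjusted p = 0.000122).

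Bach2, a repressor that favours regulatory over effector fates, averaged 10.5 ± 1.59 FPKM in Th17-derived Th1, 3.76 ± 1.46 in Th1 and 10.5 ± 3.58 in Th17 cells. It was 2.49-fold higher in Th17-derived Th1 than in Th1 cells (adjusted p = 0.0224), a call lost when Th17-derived Th1 replicate 1 (adjusted p = 0.0604) or 2 (0.0854), Th1 replicate 3 (0.07) or all libraries of replicate 3 (0.0615) were left out. Nr4a2 and Nr4a3, nuclear receptors induced by T cell receptor signals, were lower in Th17-derived Th1 than in Th1 cells (-1.24 and -1.06, adjusted p = 0.0298 and 0.0180). Those calls were lost in 9 and 6 of 23 alternatives, among them the omission of Th17-derived Th1 replicate 1 or 2 or Th1 replicate 1 or 3 (adjusted p = 0.0541 to 0.122) and of all libraries of replicate 3 (0.0739 for Nr4a2 and 0.0619 for Nr4a3).

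Genes of the regulatory T cell signature differed between groups in both directions. The list holds 24 genes, Foxp3, Ikzf2 and Ikzf4 among them, and 23 could be tested. In Th17-derived Th1 against Th1 cells 6 were higher and 2 lower (34.8% called, median 0.49), against Th17 cells 8 were higher and 4 lower (52.2%, median 0.32), and in Th1 against Th17 cells 10 were higher and 6 lower (69.6%, median 0.11). Over all tested genes, 10.5%, 15.9% and 42.9% were called in these comparisons, with median log2 differences of 0.05, -0.12 and -0.17. Genes in the order of Foxp3 included Itgae, the integrin chain CD103, at 8.10 ± 3.20 FPKM in Th17-derived Th1, 0.856 ± 0.285 in Th1 and 106 ± 3.86 in Th17. Nt5e, the ectoenzyme CD73, was at 20.5 ± 2.69 FPKM in Th17-derived Th1, 6.11 ± 0.565 in Th1 and 44.5 ± 11.7 in Th17 cells.

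Both passed in all 3 comparisons and under each of the 23 alternatives run. In Th17-derived Th1 against Th1 cells Itgae was 4.76-fold and Nt5e 3.02-fold higher (adjusted p = 0.000726 and 0.00195). The remaining signature genes called higher in that comparison each lost the call in 6 to 16 of the 23 alternatives. Il10, the gene of a suppressive cytokine, averaged 94.6 ± 3.86 FPKM in Th17-derived Th1, 93.9 ± 21.7 in Th1 and 12.9 ± 5.44 in Th17 cells, 7.21-fold higher in Th17-derived Th1 than in Th17 cells (adjusted p = 0.00025), opposite to Foxp3. Ctla4, an inhibitory receptor gene, stood at 77.7 ± 7.52 FPKM in Th17-derived Th1, 27.4 ± 17.4 in Th1 and 26.6 ± 1.47 in Th17 cells, and was higher in Th17-derived Th1 than in Th1 cells (1.75, adjusted p = 0.0492). That call was lost in 16 of 23 alternatives, among them the omission of Th17-derived Th1 replicate 3 (adjusted p = 0.0882) or of all libraries of replicate 3 (0.146), and the difference from Th17 cells did not pass (1.51, adjusted p = 0.0614).

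**Figure D5:**
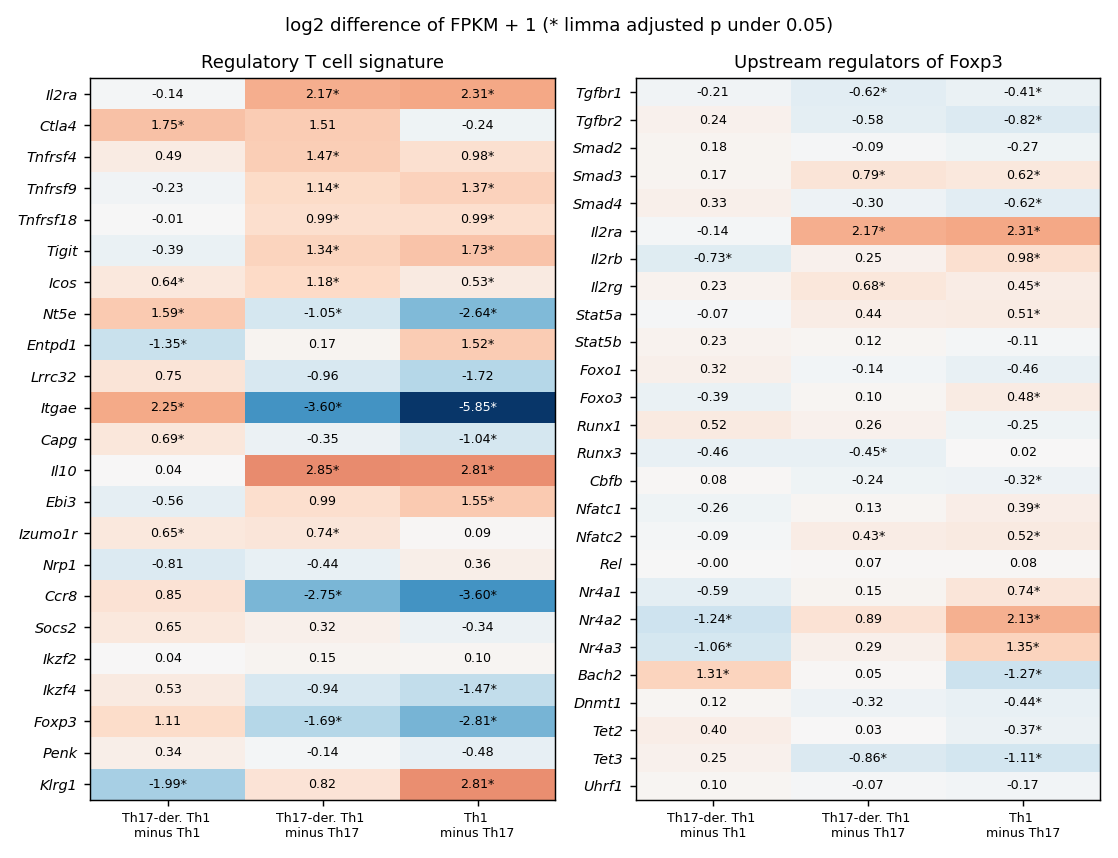
Log2 differences of FPKM + 1 (colour and printed value) for the tested genes of the regulatory T cell signature and of the upstream regulators of Foxp3 in the 3 comparisons, with an asterisk where the limma adjusted p was under 0.05. Itgae, Nt5e, Ccr8 and Foxp3 are lower, and Il2ra, Il10 and Tnfrsf4 higher, in both Th17-derived Th1 and Th1 cells than in Th17 cells.

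Of 7 genes that FOXP3 is known to repress, Il2 was too low to test and 6 were tested. Satb1, a chromatin organizer, was 2.17-fold higher in Th17-derived Th1 than in Th1 cells (147 ± 13.4 against 69.7 ± 22.9 FPKM, adjusted p = 0.0183), a call lost without Th17-derived Th1 replicate 1 (adjusted p = 0.0705) or 2 (0.0588), Th1 replicate 3 (0.0566) or all libraries of replicate 3 (0.0915). Ifng, the defining Th1 cytokine gene, was 37.4-fold higher in Th17-derived Th1 than in Th17 cells (adjusted p = 9.04e-05). By limma, 0 of the 6 were called lower in Th17-derived Th1 cells in either comparison, while 2 were lower than in Th1 cells at an unadjusted p under 0.05. Of all 10538 genes tested, 507 were called lower than in Th1 and 1000 lower than in Th17 cells. In either direction, 16.7% of the 6 were called in each comparison, against 10.5% and 15.9% of all genes.

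The list of nuclear partners of FOXP3 holds 17 genes, Ikzf4 among them, and 16 were tested. By limma, 3 were higher and 0 lower in Th17-derived Th1 than in Th1 cells (5 and 1 at an unadjusted p under 0.05). Among them were Tcf7 and Lef1, which encode a pair of related HMG-box factors. Tcf7 averaged 296.6 ± 60.4 FPKM in Th17-derived Th1, 52.0 ± 26.5 in Th1 and 371.1 ± 93.2 in Th17 cells, 6.08-fold higher in Th17-derived Th1 than in Th1 cells (adjusted p = 0.0035). Lef1 averaged 59.8 ± 4.17 FPKM in Th17-derived Th1, 18.1 ± 5.21 in Th1 and 73.1 ± 22.3 in Th17 cells, 3.25-fold higher in Th17-derived Th1 than in Th1 cells (adjusted p = 0.00434). Both calls passed under each of the 23 alternatives. Against Th17 cells, 2 partners were higher and 0 lower (3 and 2 unadjusted, Ikzf4 among the lower). Of the higher partners, Irf4, a factor of activated T cells, averaged 22.2 ± 2.32 FPKM in Th17-derived Th1 and 11.0 ± 2.88 FPKM in Th17 cells (adjusted p = 0.00384). The shares of partners called were 18.8% against Th1 and 12.5% against Th17 cells, where 10.5% and 15.9% of all genes were called.

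The machinery that Ikaros proteins work through was listed next. Of 16 tested NuRD, SIN3 and CTBP corepressor genes, 0 passed in Th17-derived Th1 against Th1 cells by limma (3 at an unadjusted p under 0.05), 1 was higher and 3 lower in Th17-derived Th1 than in Th17 cells, and Th1 against Th17 cells gave 1 higher and 8 lower, where the median of all genes was also below 0. Sin3b was higher in both (0.46 and 0.60, adjusted p = 0.00934 and 0.0011), with the first call lost without the libraries of replicate 3 (adjusted p = 0.0529). The 3 lower in Th17-derived Th1 than in Th17 cells, Mta3, Gatad2b and Sin3a, differed by -0.45, -0.43 and -0.30 and were each lost under median-ratio scaling. Without the libraries of replicate 3, Gatad2b (adjusted p = 0.0691) and Sin3a (0.187) were lost as well, and without Th17-derived Th1 replicate 3 alone both were lost too (0.0812 for Gatad2b and 0.129 for Sin3a). The shares of corepressor genes called were 0%, 25% and 56.2% in the 3 comparisons, where 10.5%, 15.9% and 42.9% of all genes were called. The 5 genes of the cereblon ubiquitin ligase, through which drugs such as lenalidomide degrade Ikaros and Aiolos proteins, passed in 0 of the 3 comparisons by limma (at an unadjusted p under 0.05, 0 of 5 for Th17-derived Th1 over Th1, 1 for Th17-derived Th1 over Th17 and 1 for Th1 over Th17). Crbn, the substrate receptor, averaged 28.5 ± 5.64, 28.8 ± 5.61 and 29.6 ± 2.73 FPKM in Th17-derived Th1, Th1 and Th17 cells.

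Of 10 genes that Ikaros factors are known to regulate in T cells, 6 could be tested, and Il2, Hes1, Dtx1 and Ptcra were too low. Tbx21, which encodes the Th1 factor T-bet and is repressed by Ikaros in mouse T cells, averaged 33.0 ± 13.2 FPKM in Th17-derived Th1, 85.9 ± 16.1 in Th1 and 8.51 ± 3.33 in Th17 cells. It was lower in Th17-derived Th1 than in Th1 cells (-1.41, adjusted p = 0.0205) and higher than in Th17 cells (1.82, adjusted p = 0.00436), while Ikzf1 passed in neither comparison. The call of Tbx21 against Th1 was lost without Th17-derived Th1 replicate 1 or 2 or Th1 replicate 1 or 3 (adjusted p = 0.0639 to 0.0898). Over the list, 0 were higher and 2 lower in Th17-derived Th1 than in Th1 cells, and 4 were higher and 0 lower than in Th17 cells by limma, with the same counts at an unadjusted p under 0.05. That is 33.3% and 66.7% of the 6 tested, where 10.5% and 15.9% of all genes were called. Among the 4 were Ifng, Il10 and Tbx21, which also stand in other lists here. A part of Ikaros factors in these shares was not tested. Of 12 lineage factors of Th1 and Th17 cells, 4 were higher and 1 lower in Th17-derived Th1 than in Th1 cells, and 5 were higher and 2 lower than in Th17 cells. Their called shares were 41.7% and 58.3%, beside the same 10.5% and 15.9% of all genes. Maf, a factor shared by Th17 and IL-10-producing T cells, was 4.11-fold higher in Th17-derived Th1 than in Th1 cells (adjusted p = 0.00237), and Ahr, the aryl hydrocarbon receptor of Th17 cells, was lower in Th17-derived Th1 than in Th17 cells (-1.91, adjusted p = 0.000537).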

How the data were processed

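Messenger RNA of 9 libraries, 3 each of Th17-derived Th1, Th1 and Th17 cells, was analysed from the FPKM values that the authors deposited. Sample titles gave the groups and the replicate numbers. Per the submitters' processing notes, mm10, HISAT2 and DESeq2 were used, while their versions and roles, the annotation and the strand setting are not given in these sources. Depth is unknown, because FPKM holds no counts and whole reads could not be recovered: between any pair of libraries, at most 1.05% of low genes shared 1 ratio (within 0.01 on the log2 scale). Of the symbols, 21962 were found in the GRCm38 annotation.

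The values were tested as log2(FPKM + 1) with limma 3.58.1 (R 4.3.3) with a mean-variance trend over all 9 libraries (6 residual degrees of freedom before moderation), two-sided, with Benjamini-Hochberg adjustment over 10538 genes (1 FPKM or more in 3 or more libraries). The fit was run on simulated data with equal, independent spread in all libraries and changes only in genes above a low level. That run does not cover libraries of unequal spread, as here, or low genes such as Foxp3 in Th1 cells. Named genes were the members, Ikzf5, up to 3 called genes per direction of each list, every gene of lists of 5 or fewer, and the 3 genes of most similar pattern per member, with 1 listed gene not reported here. The members, lists and the libraries left out were chosen with earlier results of these data known, so they are no independent evidence. Tables and figures used Python 3.11.15, pandas 2.3.3 and matplotlib 3.10.9.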

Additional observations from a re-analysis of the deposited data

How the results depend on the processing

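Of 23 alternatives, the fall of Foxp3 in Th1 against Th17 cells passed in each (leave-one-out range -3.09 to -2.66). Foxp3 in Th17-derived Th1 against Th17 cells kept its call in 22 (leave-one-out -1.99 to -1.49) and lost it without the libraries of replicate 3 (-1.55). Its difference from Th1 (leave-one-out 0.82 to 1.40) passed in 8 alternatives and missed the threshold in 15. Among the 8 were libraries rescaled to equal sums (1.56), median-ratio scaling (1.10), a pseudocount of 0.1 (1.93), array weights (1.62) and the Cd8a and Cd8b1 covariate (1.15).

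Ikzf4 in Th1 against Th17 cells (leave-one-out -1.91 to -1.16) did not pass a threshold of 0.01 (-1.47). Ikzf4 in Th17-derived Th1 against Th17 cells (-1.17 to -0.61) passed in a fit of the 2 groups alone (-0.94), with array weights (-0.66) and with the covariate (-1.14), and against Th1 cells (0.22 to 0.97) with array weights (1.27). Ikzf3 in Th17-derived Th1 against Th17 cells (-0.99 to -0.56) passed in the fit of 2 groups (-0.77) and with array weights (-0.85), and against Th1 cells (-0.57 to 0.007) with array weights (-0.67). Array weights gave Th1 replicate 2 and Th17-derived Th1 replicate 3 the weights 0.185 and 0.318.

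Directions without a call turned for Ikzf1 in Th1 against Th17 cells with median-ratio scaling (0.12, leave-one-out -0.12 to 0.003). They turned for Ikzf2 in Th17-derived Th1 against Th1 cells with quantile normalization (-0.008) and array weights (-0.37, past the threshold), with a leave-one-out range of -0.29 to 0.24. Ikzf2 in Th1 against Th17 cells (leave-one-out -0.09 to 0.44) passed with array weights (0.40) and turned without the libraries of replicate 3 (-0.13), as did Ikzf2 in Th17-derived Th1 against Th17 cells (-0.036, leave-one-out 0.002 to 0.25).

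The number of genes called was 1104 in Th17-derived Th1 against Th1 cells (leave-one-out 315 to 1861), 703 in a fit of the 2 groups, 711 without the libraries of replicate 3, 5430 with array weights and 307 at a threshold of 0.01. Against Th17 cells it was 1678 (681 to 2342), 4603 with array weights and 668 at 0.01. In Th1 against Th17 cells it was 4526 (3013 to 5400), 7116 with array weights and 2489 at 0.01. Of the listed genes, 21 were called in Th17-derived Th1 against Th1 cells (6 to 32 with a library left out, 62 with array weights, 6 at 0.01) and 31 against Th17 cells (20 to 43, 56 and 20). The causes of these changes were not tested.

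With a replicate block, Foxp3 in Th17-derived Th1 against Th1 cells (1.11, adjusted p = 0.00409) and Ikzf4 against Th17 cells (-0.94, adjusted p = 0.0476) passed, and the calls over all genes numbered 1255, 1681 and 4452. Same-numbered libraries correlated in their deviations from group means at -0.178 to 0.659, and differently numbered ones at -0.646 to 0.459. Between Th17-derived Th1 and Th1, numbers 2 and 3 gave 0.537 and 0.659, and number 1 gave -0.178. These values do not settle whether the numbers pair the samples. They were not taken to do so, although Cd8a was highest in replicate 3 and Foxp3 in replicate 2 of every group. Unknown depth limits what can be read for Foxp3 in Th1 cells, near the pseudocount.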
